A study of Mus musculus with 22 samples.

Results

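The mouse Serpinb, kallikrein (Klk) and Spink genes were followed as a set of epithelial protease and protease inhibitor genes in 22 bulk RNA-seq libraries of mouse oral (buccal) primary tumours. A gene was taken when its symbol starts with Serpinb, Klk or Spink and a digit and when it had a count of at least 10 in at least 5 of the 22 libraries. Of 77 such symbols among 56748 gene IDs, 40 passed and 37 did not, of which 14 had 0 counts in every library. The 40 members are 21 of 28 Serpinb symbols, 12 of 37 Klk symbols and 7 of 12 Spink symbols. All 40 also passed the count filter of the statistical fit, so none is missing from the tests. Spink6, with 119 counts in all and 5 libraries at the minimum, lay just inside the rule, and Serpinb1c, Serpinb9g, Spink13, Klk4 and Klk1, each with 4 libraries at the minimum, lay just outside it.

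Every tumour carried Krt5CreER-T2/+, Trp53fl/fl and 2 copies of Rosa26LSL-PIK3CA(H1047R), a switchable activated form of a lipid kinase, so the controls also lack Trp53 and express the transgene where Cre was active. Cre is driven by the promoter of Krt5, a keratin of basal keratinocytes, and was switched on with 4-hydroxytamoxifen injected into the buccal mucosa. Keap1-deleted tumours carried Keap1fl/fl in addition, and BAP tumours were started together with benzo[a]pyrene, a carcinogen of tobacco smoke. With wildtype Keap1 there are 6 untreated and 6 BAP tumours, and with Keap1 deleted 5 of each, all labelled squamous carcinoma. The series asks what KEAP1 and its partner NRF2 do to radiation response and to the immune surroundings of such tumours. The labels do not give age or sex, nor say if any animal gave more than 1 tumour, so p-values measure the spread between these samples.

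Serpinb genes encode serpins that stay inside the cell. Most trap a serine or cysteine protease in a covalent complex that neither partner survives, while a few, such as Serpinb5 (maspin), inhibit no protease. The kallikreins are secreted serine proteases that activate each other in a cascade and, in stratified epithelia such as skin and oral lining, cut the desmosomal proteins that hold outer cells together. Spink genes encode Kazal-type inhibitors. Spink5, the best known of them, encodes LEKTI, a multi-domain inhibitor of Klk5, Klk7 and Klk14 that restrains shedding of the outer layers. KEAP1 marks the transcription factor NRF2 for degradation, and NRF2 binds antioxidant response elements in DNA.

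The members lie in a few tight clusters (GENCODE M21 on GRCm38). The 12 Klk members span 7:43690418 to 44016968 on chromosome 7, all on the plus strand. Another 12 Serpinb members span 106861173 to 107610484 on chromosome 1, with 8 on the plus and 4 on the minus strand. A second Serpinb cluster of 9 members spans 32842092 to 34002794 on chromosome 13, with 6 on the plus and 3 on the minus strand. The Spink members lie elsewhere.

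Promoter sequences were looked at because members of a cluster moved together. RefSeq (GRCm38.p6) gave the 250 bases before the start of 31 members and of 32851 entries in all. The letters TGAGTCA, read on either strand, are the site of AP-1 factors; they were found in 2 of the 31 member promoters, those of Serpinb7 and Serpinb8, against 4.46% of all promoters. The looser letters TGANTCA, with any middle base, include that site and were found on either strand in 7 of the 11 chromosome 1 Serpinb promoters that had an entry, against 6.75% of all promoters, and in 0 of 11 Klk and 0 of 8 chromosome 13 Serpinb promoters. The other 5 of those 7 have A or T as the middle base and so do not hold the AP-1 site itself. The windows are shown because most of that cluster shares the looser letters; each holds 10 bases on either side of the match, reads 5′ to 3′ on the gene's strand and has the match in capitals. A match is a description of letters and not a measured binding site.
Serpinb5 (chr1:106861025-106861051, plus strand): aagttgggccTGAATCAtgtcttccaa
Serpinb12 (chr1:106934394-106934420, plus strand): aaaaacaatcTGATTCAcgatcattat
Serpinb11 (chr1:107362228-107362254, plus strand): ggtgaagagcTGAATCAtaacaacaca
Serpinb7 (chr1:107422634-107422660, plus strand): agggagtgtcTGAGTCAgaggctttat
Serpinb2 (chr1:107511319-107511345, plus strand): agtaaaatgtTGAATCAtacaaagaat
Serpinb10 (chr1:107528939-107528965, plus strand): cttgtgaaagTGAATCAagggtggggc
Serpinb8 (chr1:107589973-107589999, plus strand): gtgggaagtgTGAGTCAcagagtgttc

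Serpinb11 held a second match 181 to 175 bases before its start. The match lay 140 bases before the start in Serpinb5, 94 in Serpinb2, 54 in Serpinb10, 45 in both Serpinb12 and Serpinb7, and 23 in Serpinb8. The RefSeq starts of Serpinb11, Serpinb7 and Serpinb3b are 1116, 23034 and 117247 bases from the starts of their genes in GENCODE M21. None of the 4 Serpinb3 genes of the same cluster held TGANTCA. They held the letters TATAAA of the TATA box on either strand instead, as did Serpinb12, Serpinb2 and Serpinb7. That makes 7 of 11 promoters of that cluster against 12.37% of all promoters and 0 of 11 Klk promoters. On the gene's strand the letters began 29 bases before the start in Serpinb2, 31 in Serpinb3c, 41 in Serpinb3b, 65 in Serpinb3a and 220 in Serpinb12. Those of Serpinb3d (40 bases) and Serpinb7 (33 and 239 bases) were on the opposite strand. Bases after the RefSeq start of Serpinb3a were not found in a GENCODE transcript of the gene. The windows of Serpinb3a, Serpinb3b and Serpinb3c are shown for their likeness: Serpinb3a and Serpinb3c share 25 of 26 bases, and Serpinb3a and Serpinb3b share 24. Serpinb3d, whose match is on the opposite strand, shares 4 of 26 with Serpinb3a.
Serpinb3a (chr1:107052353-107052378, minus strand): agaggagaggTATAAAtaccagatct
Serpinb3b (chr1:107161140-107161165, minus strand): aaaggagaggTATAAAttccagatct
Serpinb3c (chr1:107278387-107278412, minus strand): agaggagaggTATAAAttccagatct
Serpinb3d (chr1:107083505-107083530, minus strand): ttgtactgacTTTATActgttctagg

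TGACNNNGC, the core letters of the antioxidant response element, were present in 1 of the 31 member promoters, that of Klk1b26, against 10.16% of all promoters. The grainyhead letters AACNGGTT were present in 0 of 31 against 1.79%. Both were searched on either strand of the 250 bases only. A stretch can match both the TGANTCA and the antioxidant response element letters. The whole 250 bases are given for Serpinb5 and Klk14, which fell in the BAP comparison described next, and for Serpinb9, which rose. Capitals in Serpinb5 mark TGANTCA, and the other sequences hold none of the searched letters. The start used for Serpinb9 is 1291 bases from that of its GENCODE gene.
Serpinb5 (chr1:106860925-106861174, plus strand): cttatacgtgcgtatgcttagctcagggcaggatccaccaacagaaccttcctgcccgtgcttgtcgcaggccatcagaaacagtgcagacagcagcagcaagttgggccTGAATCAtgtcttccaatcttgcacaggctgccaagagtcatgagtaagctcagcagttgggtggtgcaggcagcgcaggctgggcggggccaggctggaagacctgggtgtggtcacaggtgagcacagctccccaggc
Klk14 (chr7:43690168-43690417, plus strand): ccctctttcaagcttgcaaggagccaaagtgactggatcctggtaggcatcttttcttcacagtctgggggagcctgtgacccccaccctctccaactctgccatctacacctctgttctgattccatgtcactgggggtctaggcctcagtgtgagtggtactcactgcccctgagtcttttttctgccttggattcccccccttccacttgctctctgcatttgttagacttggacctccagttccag
Serpinb9 (chr13:33004291-33004540, plus strand): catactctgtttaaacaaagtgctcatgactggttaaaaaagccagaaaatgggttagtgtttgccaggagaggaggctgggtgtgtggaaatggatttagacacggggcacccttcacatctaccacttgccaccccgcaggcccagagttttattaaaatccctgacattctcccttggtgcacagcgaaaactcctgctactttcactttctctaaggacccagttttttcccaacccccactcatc

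Library totals ran from 29235010 to 39862777 counts. Values are CPM, that is counts scaled to a common library size, after TMM scaling, a trimmed-mean normalisation. Keap1 was between 45.8 and 78.9 CPM in the 12 Keap1-wildtype libraries and between 22.2 and 36.4 CPM in the Keap1-deleted untreated libraries. Among Keap1-deleted BAP libraries it was 29.8, 65.6, 9.45, 32.2 and 15.0 CPM. The library labelled Keap1-deleted BAP 2 thus held as much Keap1 as the controls. Gene-level counts may take in exons outside the deleted part and do not check the deletion itself. A few libraries stood apart in the members: Keap1-wildtype untreated 6 was the lowest of its group in 23 of the 27 members that fell in the BAP comparison below and the highest in all 4 that rose, Keap1-deleted untreated 3 was the lowest of its group in 26 of the 27, and Keap1-deleted BAP 4 was the lowest in 20 of the 27. The tissue label was set against 12 basal keratinocyte markers (Krt5, Krt14, Trp63 and others). Their summed level was 27522 to 63808 CPM in Keap1-wildtype BAP tumours and 19321 to 48996 CPM in 5 Keap1-wildtype untreated tumours, but 1543 CPM in the sixth. It was 24869, 14881, 2452, 4571 and 28610 CPM in Keap1-deleted untreated tumours and 321 to 1834 CPM in Keap1-deleted BAP tumours. In bulk tissue, fewer cells of a type and less RNA per cell cannot be told apart.

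Serpinb and kallikrein genes of the epithelium were far lower in Keap1-deleted than in Keap1-wildtype tumours when both had been started with BAP. Of the 40 members, 27 fell, 4 rose and 9 were not called, by the edgeR quasi-likelihood test at an adjusted p under 0.05 over 19202 genes. In this comparison 20.0% of all genes were called lower and 20.3% higher, 40.3% in all. The median log2 difference over the members was -4.50, and over all genes it was -0.00. The fall took in 11 of 12 Klk genes, 11 of 12 Serpinb genes of chromosome 1 and 4 of 7 Spink genes, whereas the 4 genes that rose all belong to the chromosome 13 Serpinb cluster. In 24 of the 27 that fell, the highest Keap1-deleted BAP tumour lay under the lowest Keap1-wildtype BAP tumour; 13.7% of all genes were separated in that way. Serpinb7, Serpinb3c and Klk2-ps are the 3 whose groups overlapped. Without Keap1-wildtype untreated 6 and the library labelled Keap1-deleted BAP 2 together, 27 again fell and 4 rose, and 39.2% of all genes were called in either direction.

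**Figure D1:**
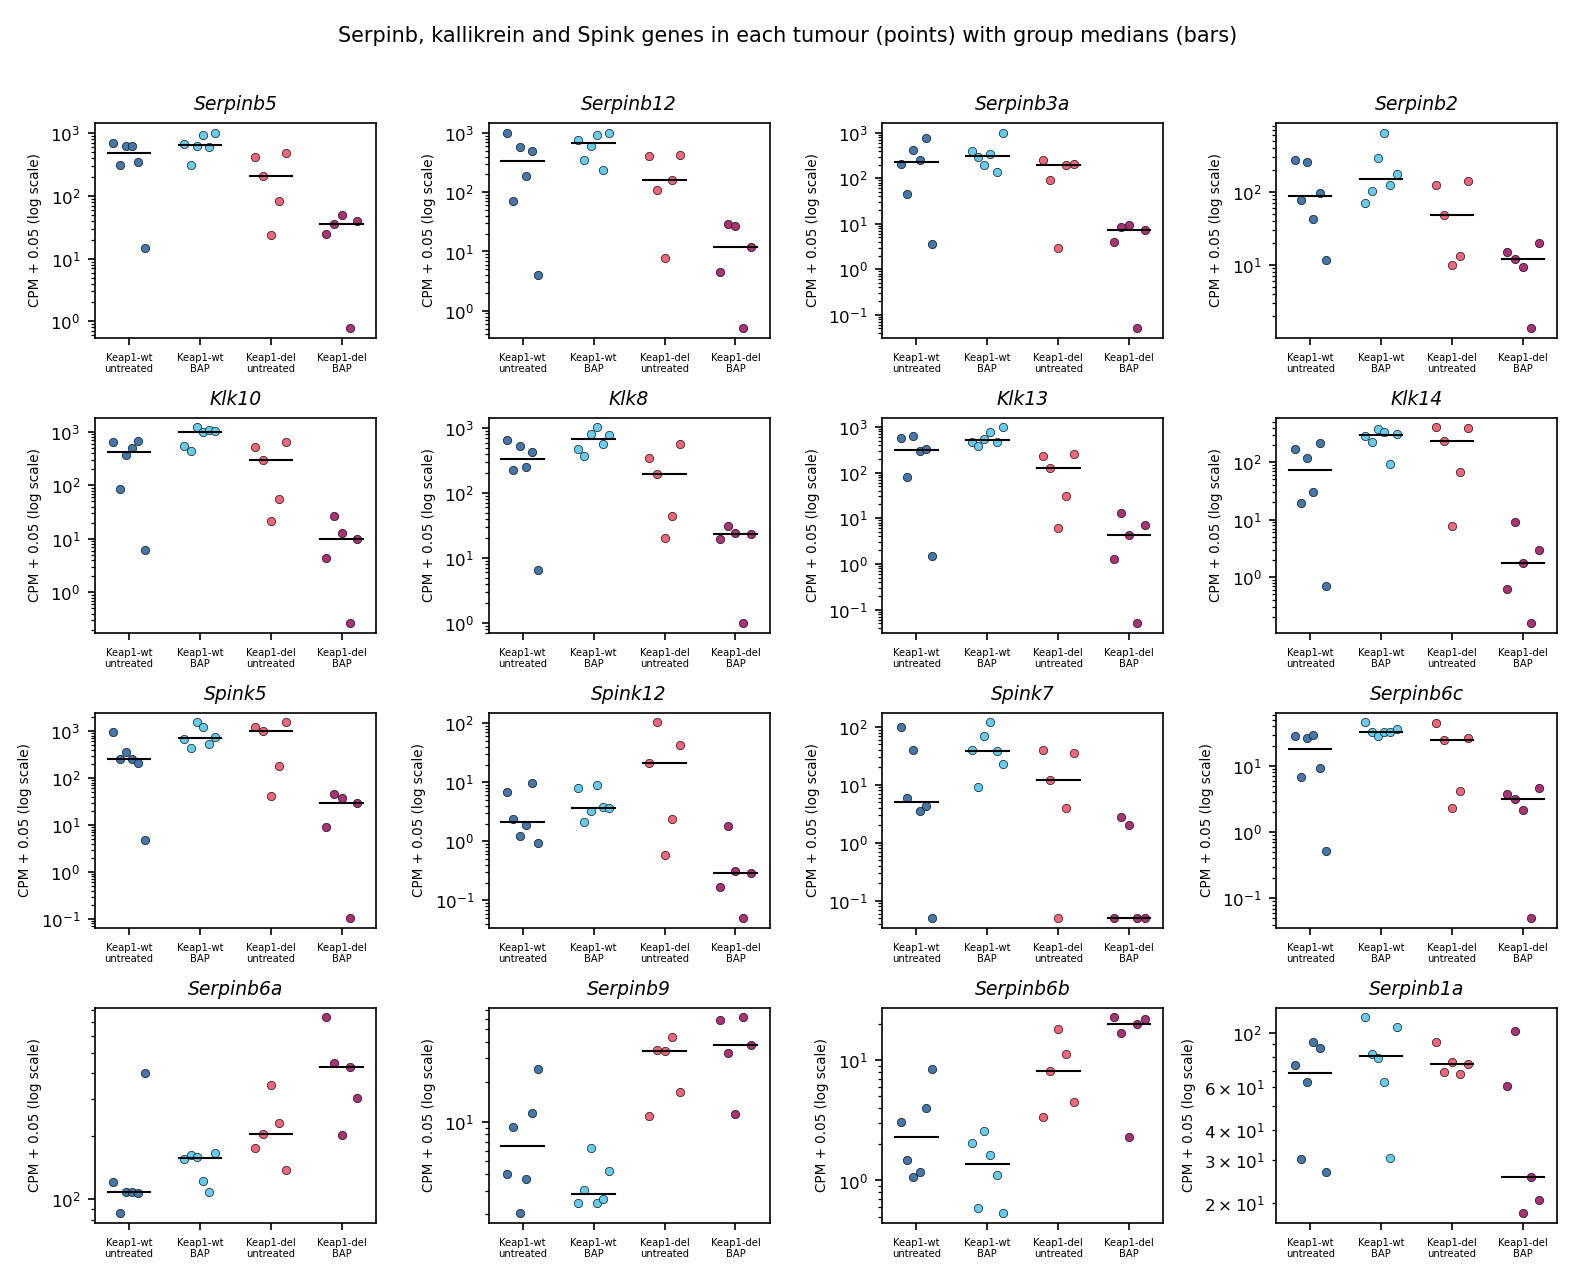
CPM plus 0.05 on a log axis for 16 members, with a point for each tumour and a bar at the group median, in Keap1-wildtype (wt) and Keap1-deleted (del) tumours without and with BAP. In the upper 3 rows the Keap1-deleted BAP points lie under the Keap1-wildtype BAP points, and in the lowest row Serpinb6a and Serpinb9 lie above them without overlap.

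The non-inhibitory serpin Serpinb5 had the highest level per length among the chromosome 1 serpins in Keap1-deleted BAP tumours. In Keap1-wildtype BAP tumours it ran from 308 through a median of 650 to 1025 CPM, and in Keap1-deleted BAP tumours it was 24.5, 35.1, 50.2, 0.724 and 40.1 CPM. All 5 Keap1-deleted tumours were low, the fourth far more than the rest. The log2 difference of Serpinb5 was -4.53 (SE 0.95, edgeR adjusted p = 0.00121). Serpinb12, an inhibitor of trypsin-like proteases found in surface epithelia, ran from 238 through 686 to 979 CPM in the Keap1-wildtype BAP group. It was 4.41, 28.7, 26.4, 0.456 and 12 CPM in the Keap1-deleted BAP group, a log2 difference of -5.48 (SE 1.22, edgeR adjusted p = 0.0018). The groups did not overlap in either gene.

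The Serpinb3 genes are the mouse relatives of the human squamous cell carcinoma antigens, which inhibit serine and cysteine proteases such as cathepsins. Serpinb3a, the highest of them per length in Keap1-wildtype tumours, ran from 141 through 316 to 1017 CPM with wildtype Keap1 and BAP. With Keap1 deleted it was 3.89, 8.44, 9.18, 0 and 7.19 CPM, and the log2 difference was -6.12 (SE 1.32, edgeR adjusted p = 0.0015). Serpinb3d and Serpinb3b differed by -6.51 (SE 1.22, adjusted p = 0.000637) and -4.61 (SE 1.13, adjusted p = 0.00343). All 3 genes were separated between the groups. Serpinb3c had the largest fitted log2 difference of all members, -7.91 (SE 1.88, edgeR adjusted p = 0.00286), at a low level: 777 counts in the 6 Keap1-wildtype BAP libraries, 1 of which had 0, and 3 counts in the Keap1-deleted BAP group. From those pooled counts the ratio was 288 with a 95% counting interval of 98.2 to 1400, which covers counting error only. Serpinb3b and Serpinb3c overlap in the annotation on the same strand, so reads between them may be divided uncertainly.

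Serpinb2, plasminogen activator inhibitor 2, ran from 70.0 through 150 to 645 CPM in the Keap1-wildtype BAP tumours. It was 14.9, 12, 9.29, 1.31 and 19.8 CPM in the Keap1-deleted BAP tumours (log2 difference -4.35, SE 0.94, edgeR adjusted p = 0.00148). The highest deleted tumour stayed under the lowest wildtype tumour. The smallest fall in the cluster was that of Serpinb8, with a log2 difference of -1.97 (SE 0.38, edgeR adjusted p = 0.000713). It was also even, at 13.9 to 19.6 CPM in the 5 Keap1-deleted BAP tumours, the fourth tumour included. Serpinb7, Serpinb10 and Serpinb11 fell by 2.91, 3.80 and 4.94 on the log2 scale. The only member of the cluster that was not called, Serpinb13, an inhibitor of cathepsins of the surface epithelium, was between 0.0764 and 2.72 CPM in Keap1-wildtype BAP tumours and 0, 0.101, 0.537, 0 and 0 CPM in Keap1-deleted BAP tumours (log2 difference -3.07, SE 1.42, edgeR adjusted p = 0.0889).

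Among the kallikreins, Klk10 had the highest level per length in 3 of the 4 groups, with a mean of 644 CPM per kilobase in Keap1-wildtype BAP tumours. Its level there ran from 439 through 1005 to 1209 CPM, against 4.41, 26.9, 12.6, 0.215 and 9.93 CPM in Keap1-deleted BAP tumours. The log2 difference of Klk10 was -6.35 (SE 1.2, edgeR adjusted p = 0.000664). Klk8, also called neuropsin, ran from 373 through 668 to 1022 CPM and was 19.6, 30.5, 24.2, 0.939 and 23.6 CPM with Keap1 deleted. Its 4 higher deleted tumours lay close together, and only the fourth was much lower (log2 difference -5.08, SE 1.01, edgeR adjusted p = 0.000905). Klk7, the chymotrypsin-like kallikrein that digests corneodesmosomes, ran from 191 through 521 to 620 CPM. In the deleted group it was 5.79, 33.9, 35.9, 0 and 15.7 CPM (log2 difference -4.73, SE 1.27, edgeR adjusted p = 0.00631). Both genes were separated between the groups.

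Klk13 had the largest log2 difference among the kallikreins, -6.89 (SE 1.38, edgeR adjusted p = 0.000936). It ran from 390 through 508 to 969 CPM in Keap1-wildtype BAP tumours and was 1.24, 12.7, 4.31, 0 and 7.07 CPM in Keap1-deleted BAP tumours. Klk14, a trypsin-like protease able to activate other kallikreins, ran from 92.4 through 299 to 377 CPM and was 0.573, 8.94, 1.71, 0.107 and 2.86 CPM in those groups. The groups were far apart, and the log2 difference of Klk14 was -6.57 (SE 1.32, edgeR adjusted p = 0.000957). The highest deleted value of both genes belongs to the library labelled Keap1-deleted BAP 2. Klk5, Klk6, Klk9, Klk11 and Klk12 fell by 4.47 to 6.30 on the log2 scale. Klk2-ps, a transcribed pseudogene, had 106 counts in the Keap1-wildtype BAP group and 1 in the Keap1-deleted BAP group, a ratio of 118 with a 95% counting interval of 20.7 to 4701. Klk1b26, a kallikrein of the glandular branch, was not called and stayed at or under 1.61 CPM in every library.

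Spink5, which encodes LEKTI, was the highest Spink gene by CPM in every group. It lies on chromosome 18 with 5 other Spink members, while Spink2 lies on chromosome 5. It ran from 426 through 718 to 1523 CPM in Keap1-wildtype BAP tumours and was 9.02, 46.4, 37.5, 0.0537 and 29.6 CPM in Keap1-deleted BAP tumours. No tumour overlapped, and the log2 difference of Spink5 was -5.13 (SE 1.22, edgeR adjusted p = 0.00287). Spink7, a Kazal inhibitor of oesophageal and other squamous epithelium, ran from 9.15 through 38.7 to 119 CPM and was 0, 2.75, 1.96, 0 and 0 CPM with Keap1 deleted (log2 difference -5.69, SE 1.75, edgeR adjusted p = 0.0142). Spink12 ran from 2.10 through 3.66 to 9.11 CPM and was 0.121, 1.79, 0.268, 0 and 0.236 CPM. Its log2 difference of -3.34 (SE 1.13, edgeR adjusted p = 0.0236) was no longer called without Keap1-deleted BAP 1, 3 or 5, with values of -4.94 to -3.02 over the 11 fits that left out a library of this comparison. Spink14, with 194 counts against 3, gave a ratio of 71.9 with a 95% counting interval of 24.3 to 352.

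Spink6, Spink10 and Spink2 were not called. Each was under 2 CPM in every library. The Spink2 values in Keap1-deleted BAP tumours, 0.996, 0.556, 1.07, 1.18 and 1.0 CPM, were close together, while those in Keap1-wildtype BAP tumours ran from 0 to 0.611 CPM (log2 difference 2.76, SE 1.31, edgeR adjusted p = 0.0984).

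The chromosome 13 cluster holds serpins best known from blood cells. Serpinb9, the inhibitor of granzyme B that protects cytotoxic lymphocytes from their own protease, ran from 2.36 through 2.78 to 6.22 CPM in Keap1-wildtype BAP tumours. In Keap1-deleted BAP tumours it was 58.4, 33.1, 11.4, 61.2 and 38.1 CPM. All 5 lay above all 6, and the log2 difference of Serpinb9 was 3.55 (SE 0.58, edgeR adjusted p = 0.000355). Serpinb9b, a close relative, was at 0 in 4 of the 6 wildtype tumours and reached 0.259 CPM in the others, against 12.3, 1.69, 0.599, 1.10 and 11.5 CPM (log2 difference 6.0, SE 1.40, edgeR adjusted p = 0.00246). Of its 11 libraries at the minimum count, Keap1-wildtype untreated 6 was the only one with wildtype Keap1. Serpinb9b therefore entered the set through the groups where it was high, and its rise is partly built into that rule.

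Serpinb6a, an inhibitor of cathepsin G and other serine proteases, was the most abundant member per length in Keap1-deleted BAP tumours, with a mean of 78.3 CPM per kilobase. It ran from 108 through 157 to 167 CPM in Keap1-wildtype BAP tumours and was 739, 445, 203, 427 and 304 CPM in Keap1-deleted BAP tumours (log2 difference 1.54, SE 0.37, edgeR adjusted p = 0.00314). Serpinb6b ran from 0.485 through 1.33 to 2.54 CPM and was 22.6, 16.8, 2.25, 19.9 and 21.9 CPM. Only the third deleted tumour reached into the wildtype range, and the log2 difference of Serpinb6b was 3.60 (SE 0.66, edgeR adjusted p = 0.000571). Serpinb9, Serpinb9b and Serpinb6a were the 3 members higher without overlap, against 13.8% of all genes. For Serpinb9b the count rule, met through Keap1-deleted libraries, favoured this.

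The neighbour Serpinb6c went the other way. It ran from 28.1 through 32.7 to 45.7 CPM with wildtype Keap1 and BAP and was 3.77, 3.08, 2.13, 0 and 4.57 CPM with Keap1 deleted, a log2 difference of -3.68 (SE 0.97, edgeR adjusted p = 0.0057). Serpinb1a, an inhibitor of neutrophil elastase, ran from 30.6 through 80.7 to 116 CPM and was 60.6, 102, 18.1, 25.5 and 20.6 CPM. Those groups overlapped and the gene was not called (log2 difference -0.81, SE 0.43, edgeR adjusted p = 0.138). Serpinb1b, Serpinb6d and Serpinb9e were not called either, with log2 differences of 0.46, 1.47 and 2.22. Reads of Serpinb9e are less certain, since 10.14% of the 100-base stretches of its transcripts also occur in another gene, mostly Serpinb9f.

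**Figure D2:**
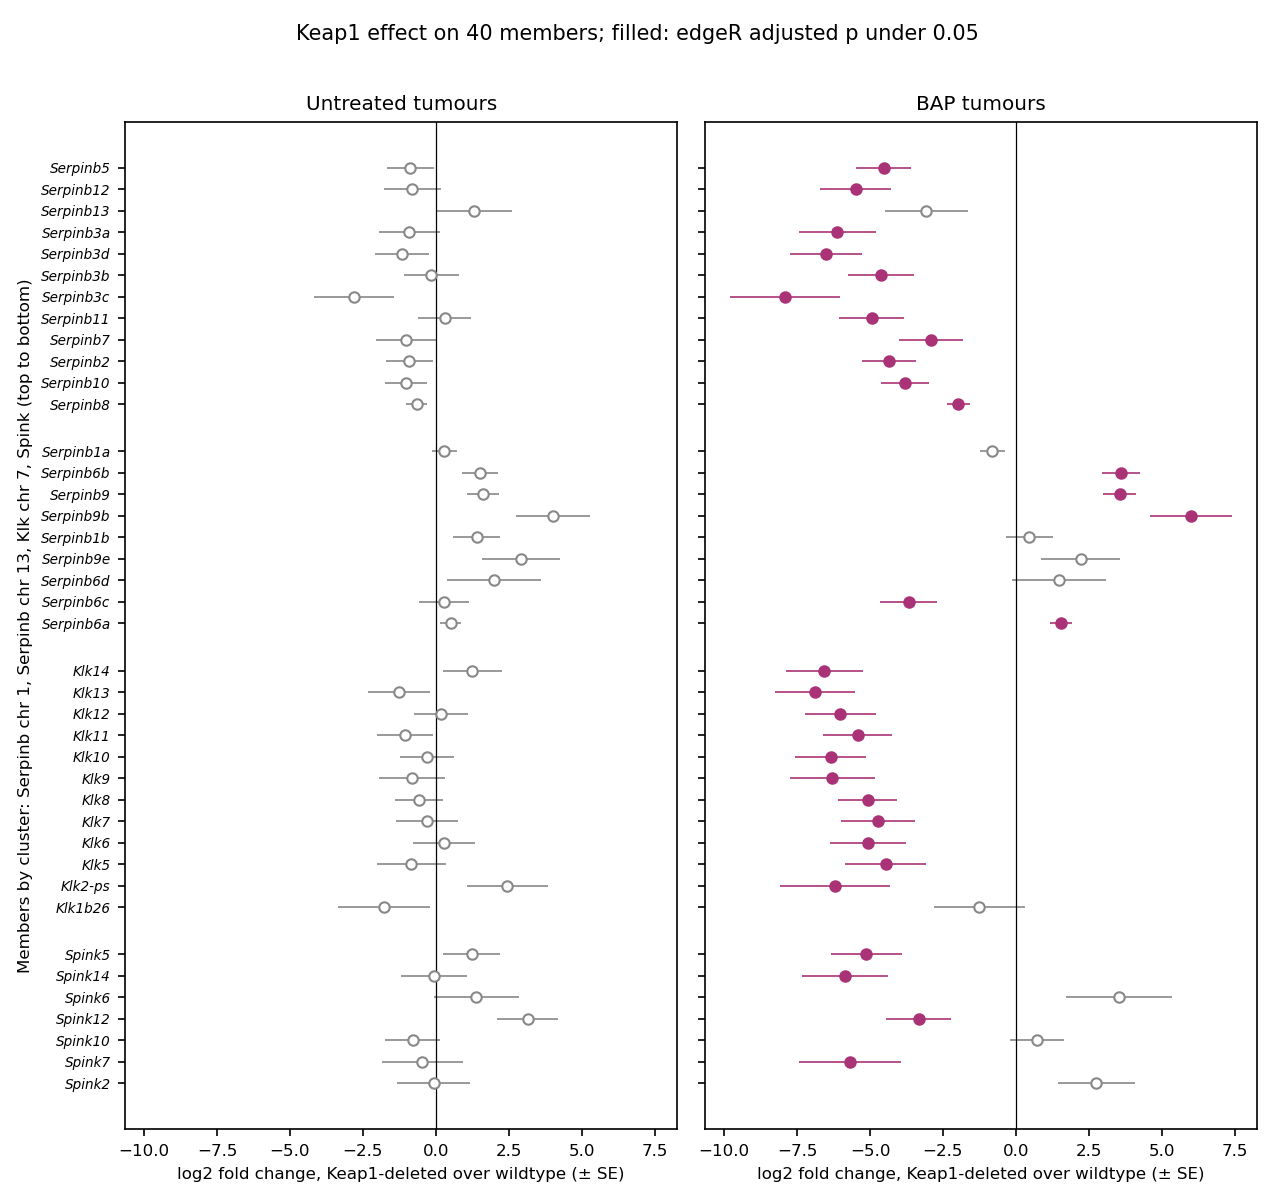
The log2 difference between Keap1-deleted and Keap1-wildtype tumours with its SE for all 40 members, untreated on the left and BAP on the right, with filled points for an edgeR adjusted p under 0.05. No point is filled on the left, while 27 are filled below 0 and 4 above 0 on the right, the latter all in the chromosome 13 block.

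Markers of other cell types moved in the same comparison. Of the keratinocyte markers, 11 of 12 basal, 10 of 10 differentiated and 6 of 6 stress-associated genes fell, as did 1 (Epcam) of 7 simple epithelial markers. All 8 macrophage, 7 of 7 fibroblast, 7 of 8 skeletal muscle, 5 of 7 mast cell, 4 of 7 cytotoxic lymphocyte, 2 of 8 neutrophil and 2 of 5 tested salivary gland markers rose. The summed macrophage markers were 89.1 to 212 CPM in Keap1-wildtype BAP tumours and 1740 to 3734 CPM in Keap1-deleted BAP tumours, and no tumour overlapped. Cytotoxic lymphocyte markers summed to 0.802 to 2.42 CPM and 2.60 to 61.8 CPM. The highest value was that of Keap1-deleted BAP 1, and the rest of its group reached 9.62 CPM at most. Salivary gland markers summed to 3184 CPM in Keap1-deleted BAP 1 and to 9.68 to 173 CPM in the rest of its group. In Keap1-wildtype BAP tumours they were 48.9 to 315 CPM. With the mean log2 CPM of the basal markers (the basal score) as a covariate, 0 of 40 members and 0 of 19202 genes were called in the BAP comparison, and Serpinb5 then had a log2 difference of 1.35 (edgeR adjusted p = 0.72). The score ran from 8.76 to 9.64 in Keap1-wildtype BAP tumours and from 2.07 to 5.74 in Keap1-deleted BAP tumours, so the groups do not share any part of its range, and the score and the group cannot be told apart.

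The level of a member can also be set against that of the basal markers of the same tumour. Per 1000 CPM of the 12 markers, Serpinb5 was 14.7 ± 2.79 (SD, n = 6) in untreated and 15.3 ± 4.64 (SD, n = 6) in BAP tumours with wildtype Keap1. With Keap1 deleted it was 15.0 ± 3.36 (SD, n = 5) untreated and 20.9 ± 15.5 (SD, n = 5) with BAP. These means differed by less than the spread within the last group. Klk8 was alike, with 11.4 ± 5.48, 15.2 ± 6.10, 12.9 ± 4.52 and 13.4 ± 6.94 in the same order. Klk10, Klk13 and Klk14 had lower means in Keap1-deleted BAP than in Keap1-wildtype BAP tumours on this scale as well. Klk7 did not, with means of 12.68 in Keap1-deleted BAP and 11.34 in Keap1-wildtype BAP tumours and overlapping groups. Klk5, Klk6, Klk9, Klk11 and Klk12 were not put on this scale. Klk13 was 9.20 to 19.4 in Keap1-wildtype BAP and 0 to 7.08 in Keap1-deleted BAP tumours, without overlap. Klk10 was 19.8 ± 6.47 (SD, n = 6) and 7.05 ± 5.96 (SD, n = 5) in those groups, which overlapped. Serpinb9 and Serpinb6a were higher without overlap, from 10.2 to 190.6 against 0.0463 to 0.141 for Serpinb9. The basal markers were 27522 to 63808 CPM in Keap1-wildtype BAP and 321 to 1834 CPM in Keap1-deleted BAP tumours. A gene that did not fall with them is therefore higher on this scale by construction. Serpinb1a, not called in CPM, was also higher without overlap, at 11.2 to 79.3 against 0.65 to 2.99. Klk14 and Spink5 stood out in untreated tumours. For Klk14 the values were 3.04 ± 3.40, 6.24 ± 2.60, 12.6 ± 5.36 and 1.76 ± 1.90, and 4 of 5 Keap1-deleted untreated tumours, at 16.1, 15.4, 14.7 and 13.6, lay above all other tumours. The fifth of them, Keap1-deleted untreated 3, was at 3.14. Spink5 was 10.2 ± 5.80, 19.6 ± 10.4, 45.2 ± 18.4 and 16.3 ± 13.8, with Keap1-deleted untreated tumours from 17.2 to 66.6 and Keap1-wildtype untreated tumours from 3.04 to 19.7. These ratios are descriptions, given without a test.

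**Figure D3:**
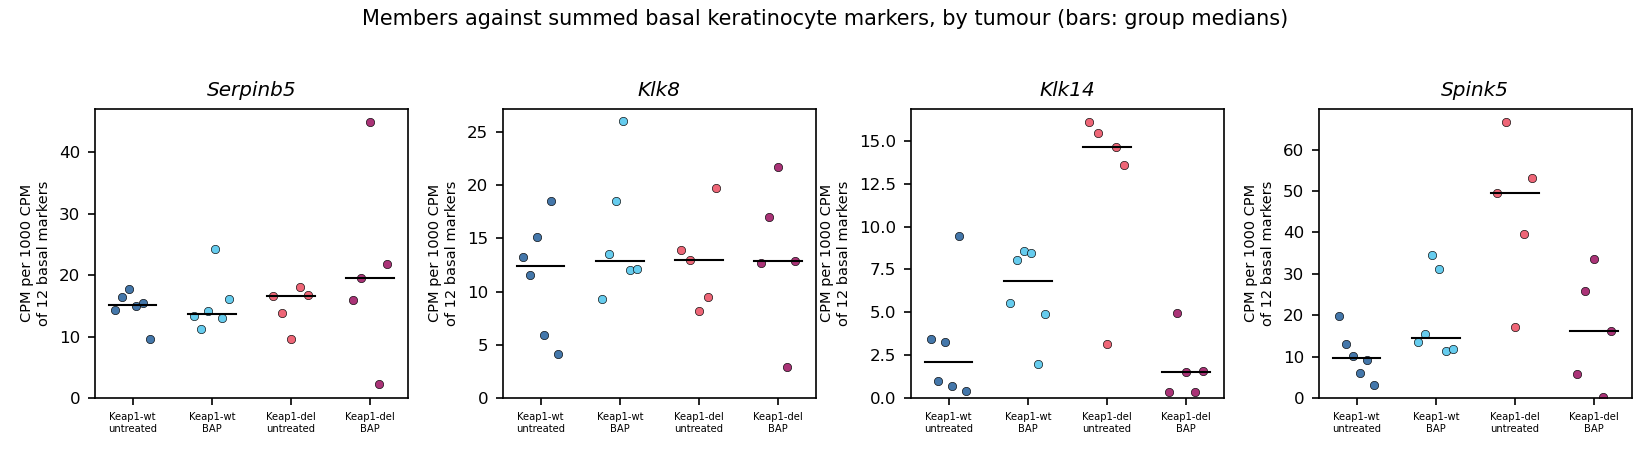
CPM of Serpinb5, Klk8, Klk14 and Spink5 per 1000 CPM of 12 basal keratinocyte markers, a point for each tumour and a bar at the group median, linear axes from 0. Serpinb5 and Klk8 overlap in all 4 groups, while 4 of 5 Keap1-deleted untreated tumours lie highest for Klk14 (13.6 to 16.1).

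Without BAP, deletion of Keap1 was followed by few differences in these genes. By edgeR, 0 of 40 members were called in either direction, with 5 at an unadjusted p under 0.05, and 0.214% of all genes were called higher and 0.0781% lower. DESeq2 called 2 members higher, Serpinb9b and Spink12, and 4.41% of the genes it tested in either direction. The median log2 difference over the members was -0.12 and over all genes -0.05. The 5 with the smallest p were all higher with Keap1 deleted: Serpinb9b, Spink12, Serpinb9, Serpinb6b and Serpinb9e. Serpinb9e, at 0 to 0.268 CPM with wildtype and 0.279, 0.375, 2.12, 0.599 and 0.931 CPM with deleted Keap1, was the only member without overlap between these groups. Of all genes, 1.23% were higher and 0.708% lower without overlap. The nearest values of Serpinb9e, 0.268 and 0.279 CPM, rest on 8 and 9 counts. All 6 libraries in which Serpinb9e met the minimum count were Keap1-deleted, and Serpinb9b too met the rule through such libraries. Higher levels of these genes with Keap1 deleted are thus partly built into their selection.

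Serpinb9 ran from 1.98 through 6.46 to 24.7 CPM in Keap1-wildtype untreated tumours, the highest being the sixth, and was 11, 34.7, 33.9, 43.3 and 16.6 CPM in Keap1-deleted untreated tumours. The log2 difference was 1.61 (SE 0.54, edgeR adjusted p = 0.148). Serpinb9b was at most 0.83 CPM in the Keap1-wildtype and 3.23, 4.02, 5.48, 0.809 and 1.01 CPM in the Keap1-deleted untreated group (log2 difference 4.02, SE 1.26, edgeR adjusted p = 0.124). Keap1-wildtype untreated 6 was the highest of its group for both genes. Without that library, 4 members were called higher by edgeR: Serpinb9 (log2 difference 2.21, adjusted p = 0.00962), Serpinb9b (6.0, adjusted p = 0.0086), Serpinb6a (1.05, adjusted p = 0.0181) and Serpinb6b (2.10, adjusted p = 0.0274). In that fit 14.4% of all genes were called in either direction, against 0.292% with the library. The same library held the highest summed macrophage markers of its group, 3679.5 CPM against a group median of 198, and what part they have in these values was not tested. In Keap1-deleted untreated tumours the summed macrophage markers were 371 to 1547 CPM.

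Spink12 ran from 0.881 through 2.11 to 9.85 CPM in Keap1-wildtype untreated tumours and was 21.4, 103, 0.543, 2.37 and 42.5 CPM in Keap1-deleted untreated tumours. The group was split, with 3 tumours above every other tumour of the series, 1 within the range of the controls (2.37 CPM) and 1 under it (0.543 CPM). The log2 difference of Spink12 was 3.14 (SE 1.04, edgeR adjusted p = 0.143). The 3 high tumours, Keap1-deleted untreated 1, 2 and 5, were also those with the highest summed basal markers of their group. Spink5 was 1233, 991, 42.3, 181 and 1521 CPM in the same 5 tumours and ran from 4.69 through 251 to 965 CPM in Keap1-wildtype untreated tumours (log2 difference 1.22, SE 0.99, edgeR adjusted p = 0.525). With the basal score as a covariate, Spink5 was the only member called, higher with Keap1 deleted by 2.71 on the log2 scale (edgeR adjusted p = 0.00332). In that fit 0.687% of all genes were called in either direction.

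Klk14 was 400, 230, 7.70, 67.0 and 389 CPM in Keap1-deleted untreated tumours and ran from 0.648 through 73.2 to 218 CPM in Keap1-wildtype untreated tumours (log2 difference 1.25, SE 1.0, edgeR adjusted p = 0.517). Its share of all counts of the 12 Klk members was 15.4% ± 5.66 (SD, n = 5) there and 4.00% ± 2.89 (SD, n = 5) in the BAP tumours of that genotype. With wildtype Keap1 it was 4.43% ± 2.91 (SD, n = 6) untreated and 7.03% ± 2.09 (SD, n = 6) with BAP. The lowest Keap1-deleted untreated share, 8.69%, lay under the highest Keap1-wildtype untreated share, 9.95%, so the groups touched. Klk13 went the other way, at 8.92% ± 1.56 (SD, n = 5) in Keap1-deleted untreated against 14.9% ± 5.39 (SD, n = 6) in Keap1-wildtype untreated tumours. Klk10 made up about the same share in those groups, 21.3% ± 2.08 and 22% ± 7.86. Shares need no scaling between libraries, but a share rises when others fall.

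**Figure D4:**
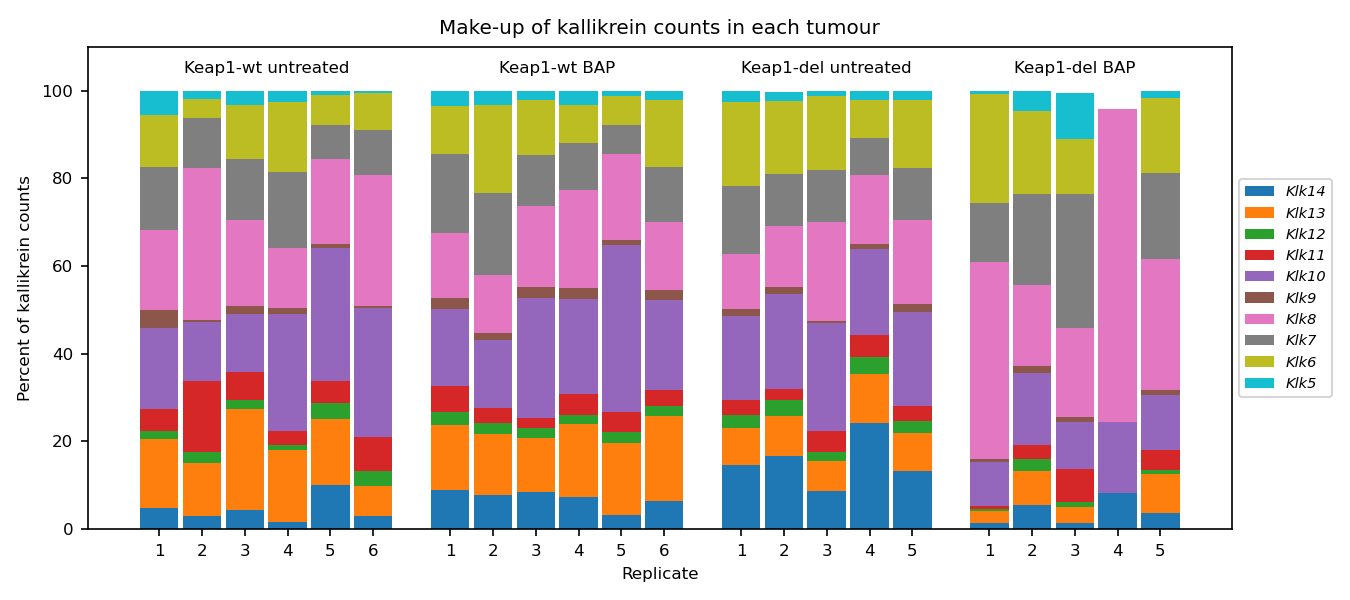
Percent of all Klk member counts taken by each of 10 kallikreins in every tumour, stacked; Klk2-ps and Klk1b26 make up the rest. Klk14, the lowest segment, takes 8.69% to 24.1% in Keap1-deleted untreated tumours and 1.65% to 9.95% in Keap1-wildtype untreated tumours, and Keap1-deleted BAP 4, with only 1.31 CPM of summed kallikreins, rests on few counts.

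Serpinb5 itself was 411, 207, 23.6, 82.7 and 479 CPM in Keap1-deleted untreated tumours and ran from 14.7 through 492 to 700 CPM in Keap1-wildtype untreated tumours. The groups overlapped widely (log2 difference -0.87, SE 0.80, edgeR adjusted p = 0.578). Low values in both groups belong to libraries with low basal markers, namely Keap1-wildtype untreated 6 and Keap1-deleted untreated 3 and 4.

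BAP alone left the members of Keap1-wildtype tumours without a called difference. By edgeR 0 of 40 members, and 0% of all genes in either direction, were called, with 2 members, Serpinb9 and Spink6, at an unadjusted p under 0.05. DESeq2 called 0 members as well, against 4.43% of the genes it tested. The median log2 difference was 0.66 over the members and -0.09 over all genes. All 40 members overlapped between the groups; 0.0833% of all genes were higher and 0.203% lower without overlap. Klk14 was higher by 1.55 (SE 0.97, edgeR adjusted p = 0.506), and Serpinb9 differed by -1.41 (SE 0.52, edgeR adjusted p = 0.228). Spink6 rests on 31 counts against 1. Summed over the 12 Klk members, the level was 2805 to 4975 CPM in Keap1-wildtype BAP tumours and 21.3 to 3534 CPM in Keap1-wildtype untreated tumours, the lowest being tumour 6.

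In Keap1-deleted tumours, BAP was accompanied by lower levels. By edgeR 15 of 40 members fell and 0 rose, against 5.16% and 0.943% of all genes (6.10% in either direction), and the median log2 difference was -3.21 over the members and -0.02 over all genes. They are 7 kallikreins (Klk14, Klk13, Klk12, Klk11, Klk10, Klk8 and Klk2-ps), 6 chromosome 1 serpins (Serpinb3a, Serpinb3b, Serpinb3d, Serpinb5, Serpinb11 and Serpinb12), Spink5 and Spink12. All 40 members overlapped between these groups, and Keap1-deleted untreated 3 was low in its group; 3.54% of all genes were lower and 2.40% higher without overlap. The count was 1 when only the groups compared were fitted, 3 with no low-count filter and 23 with DESeq2. Of all genes tested, those fits called 2.05%, 1.12% and 10.6% in either direction.

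Klk14, which fell by 6.26 on the log2 scale (SE 1.31, edgeR adjusted p = 0.0161), and Spink12, which fell by 6.12 (SE 1.29, adjusted p = 0.0161), were called in each of the 10 fits that left out a library of this comparison. The count of called members in those fits ran from 2 to 20, with the lowest of 2 without Keap1-deleted untreated 1, Keap1-deleted untreated 5 or Keap1-deleted BAP 5. Of all genes, 0.913% to 8.06% were called in those fits. Spink5 differed by -5.02 (SE 1.23, edgeR adjusted p = 0.0243) and Klk10 by -4.83 (SE 1.13, edgeR adjusted p = 0.0221). Serpinb5 differed by -3.00 (SE 0.89, edgeR adjusted p = 0.0493) and so lay at the edge of the threshold. Of the basal keratinocyte markers, 8 of 12 fell too. With the basal score as a covariate 0 members and 0.0104% of all genes were called. The score ran from 6.27 to 8.82 in the untreated and from 2.07 to 5.74 in the BAP tumours. Here too the groups share no part of its range, so the score and the group cannot be told apart.

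The Keap1 effect itself was compared between BAP and untreated tumours with an interaction term. It was lower with BAP for 12 of 40 members and higher for 0, against 4.47% and 2.47% of all genes, by edgeR. The median of this log2 difference of differences was -4.38 over the members and 0.10 over all genes. Klk14 had the largest size among members with a mean of at least 1 CPM in a group other than the pseudogene Klk2-ps, -7.82 (SE 1.60, adjusted p = 0.0292). Spink12 and Spink5 followed with -6.48 (SE 1.54) and -6.35 (SE 1.53), both at an edgeR adjusted p of 0.0299. The remaining called members were Klk6, Klk8, Klk10, Klk12, Klk13, Serpinb3a, Serpinb3d and Serpinb11, at -6.19 to -4.51, besides Klk2-ps. No chromosome 13 serpin was among them. The calls of the interaction, of members and of all genes alike, rest on single libraries. Without Keap1-deleted untreated 1, 2 or 5, 0 members were called, against 0.00505%, 0.00508% and 0.00507% of all genes. Without Keap1-deleted BAP 4, 0 members and 0.0102% of all genes were called. The member count was 21 without Keap1-wildtype untreated 1 (12.1% of all genes) or Keap1-deleted untreated 3 (9.68%). It was also 0 with no low-count filter (0.312% of all genes) and with the basal score as a covariate (0% of all genes).

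Among proteases that serpins of this family are known to trap, 8 of 12 tested genes rose, 0 fell and 4 were not called in Keap1-deleted against Keap1-wildtype BAP tumours, where 20.3% of all genes rose. The median log2 difference was 1.90, against -0.00 over all genes. In the same comparison 8 of 8 macrophage, 7 of 7 fibroblast and 5 of 7 mast cell markers rose, and their part in these values was not tested. Ctss, cathepsin S of antigen-presenting cells, averaged 33.5 and 384 CPM in Keap1-wildtype and Keap1-deleted BAP tumours, a log2 difference of 3.52 (SE 0.67, edgeR adjusted p = 0.000675). Ctsl and Ctsb, cathepsins of the lysosome, rose by 1.43 (adjusted p = 0.0059) and 1.11 (adjusted p = 0.011), and Ctsk, the cathepsin of osteoclasts and fibroblasts, by 3.46 (adjusted p = 0.0137). The mast cell proteases Tpsb2 and Cma1, Plat and Casp8 also rose. Gzmb, the target of Serpinb9, had means of 0.81 and 4.63 CPM and was not called (log2 difference 2.50, SE 1.17, edgeR adjusted p = 0.094). None of the 12 was called in the other comparisons by edgeR.

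Of 17 desmosomal substrates, membrane proteases and receptors that work with the kallikreins, 14 fell, 0 rose and 3 were not called in the BAP comparison of genotypes, where 20.0% of all genes fell. The median log2 difference was -5.05. Of the keratinocyte markers, 11 of 12 basal and 10 of 10 differentiated ones fell in the same comparison, and their part in these values was not tested. St14 (matriptase), which activates other epithelial proteases, averaged 141 and 7.07 CPM, a log2 difference of -4.32 (SE 0.76, edgeR adjusted p = 0.00047). Tmprss11a, Tmprss11d and Tmprss11e, relatives of human airway trypsin-like protease, fell by 6.06, 5.18 and 5.29 on the log2 scale. F2rl1, the receptor PAR2 that trypsin-like kallikreins can cut, did not pass, at means of 20.7 and 13.7 CPM (log2 difference -0.59, SE 0.46, edgeR adjusted p = 0.314). In Keap1-deleted tumours with against without BAP, 6 of the 17 fell, where 5.16% of all genes did. In the interaction 7 did, where 4.47% of all genes did, and calls of that term rest on single libraries.

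Of 17 tested other protease inhibitors of epithelia, 9 fell, 2 rose and 6 were not called in the BAP comparison of genotypes, where 20.0% of all genes fell and 20.3% rose. Spint1 and Spint2, membrane inhibitors of matriptase, fell by 3.52 (SE 0.62, edgeR adjusted p = 0.000467) and 4.60 (SE 0.81, edgeR adjusted p = 0.000473) on the log2 scale, and Wfdc5 by 5.61 (SE 1.18, adjusted p = 0.00125). Timp1, an inhibitor of matrix metalloproteases, rose by 5.21 (SE 1.09, edgeR adjusted p = 0.00125). Without BAP, Serpine2 was the only gene of the list that was called, higher with Keap1 deleted by 3.11 (edgeR adjusted p = 0.00756). These lists were picked with earlier results of these data known.

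Genes beside or inside the clusters were also looked at in the BAP comparison of genotypes, where 40.3% of all genes were called in either direction. On chromosome 1, Kdsr did not differ by the test in the BAP comparison of genotypes (log2 difference 0.07, edgeR adjusted p = 0.753) and Vps4b fell by 0.89 (adjusted p = 0.00383), while Cdh19 and Dsel on the far side were not called. Beside the kallikreins, Ctu1 fell by 1.52 (SE 0.28, edgeR adjusted p = 0.000516) and Siglece, 1700028J19Rik and 2410002F23Rik were not called. On chromosome 13, Nqo2, a quinone reductase gene at 33964687 to 33988443, inside the annotated span of Serpinb6a (33917918 to 34002794), rose by 1.97 (SE 0.50, edgeR adjusted p = 0.00438), and Gmds rose by 1.93 (adjusted p = 0.046). Wrnip1, Bphl and Tubb2a were not called.

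Most members can be told apart by sequence. Of the 100-base stretches of their GENCODE transcripts, 7.52% in Serpinb2 and 5.10% in Serpinb10 are shared, each with the other, 6.53% in Serpinb3a with Gm8080, and 0.51% each in Serpinb3b and Serpinb3c. Serpinb2 and Serpinb10 overlap on the same strand, so their counts are not fully separate. Klk1b26 and Klk14 shared 0.47% and 0.34%, and apart from Serpinb9e, named above, the other members shared none.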

How the data were processed

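RNA-seq of 22 bulk tumours was analysed. The authors deposited expected counts per gene with effective lengths, 1 table per library, per the file headers; their aligner, annotation and genome build: not given in the sources used here. Expected counts were rounded. Symbols and positions came from GENCODE M21 (GRCm38), which named 52073 of 56748 IDs, holding 99.39% of counts. edgeR 4.0.16 in R 4.3.3 fitted all 22 libraries together with TMM scaling and the robust quasi-likelihood test, after filterByExpr at a minimum count of 10 (19202 genes, Benjamini-Hochberg adjustment). Called means an adjusted p under 0.05. Fold changes are edgeR's fitted log2 values; log2 CPM, used for the basal score, has a prior count of 2. DESeq2 1.42.0 and other filters, scalings, covariates and left-out libraries were alternatives. The scripts were tested on simulated data. No pair of libraries was a duplicate.

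The members and the gene lists were chosen with earlier results of these data known. Members described in full are Klk14 and Serpinb5, the 4 with the highest mean in each of the 4 clusters, those called against the direction of most, and the 3 called with the largest fold in each direction at a mean of at least 1 CPM in a group. Serpinb8, Serpinb13, Spink2 and Serpinb9e were added after their values were seen.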

Additional observations from a re-analysis of the deposited data

Results flagged for a closer look

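In 21 of 84 groups of member values tested, 1 tumour lay apart from the rest of its group by Dixon's criterion, where chance gives about 1 in 20 groups. The groups share libraries. For Klk2-ps, Serpinb3c and Spink14 in Keap1-deleted BAP tumours, all other libraries were at 0. Any count is then set apart, and the rate of 1 in 20 does not apply to them. Keap1-wildtype untreated 6 was the lowest of its group in Klk13 (1.45 CPM), Klk7 (2.18 CPM), Klk8 (6.37 CPM), Serpinb5 (14.7 CPM), Serpinb6c (0.47 CPM) and Spink5 (4.69 CPM), and the highest in Serpinb6a (402 CPM). Keap1-deleted BAP 4 was the lowest in Klk7 (0 CPM), Klk8 (0.939 CPM), Serpinb2 (1.31 CPM), Serpinb3a (0 CPM), Serpinb5 (0.724 CPM), Serpinb6c (0 CPM) and Spink5 (0.0537 CPM). Keap1-deleted BAP 3 was the lowest in Serpinb6b (2.25 CPM) and the only one above 0 in Serpinb3c (0.0619 CPM). Single counts set apart Klk2-ps in the library labelled Keap1-deleted BAP 2 (0.0253 CPM), and few counts Spink14 in Keap1-deleted BAP 5 (0.0884 CPM). Keap1-wildtype BAP 5 was low in Klk7 (191 CPM) and Serpinb3c (0 CPM), and Keap1-deleted untreated 3 in Serpinb3a (2.87 CPM).

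The edgeR interaction term, which compares the Keap1 effect between BAP and untreated tumours, was called lower in 12 of 40 members. Of all genes, 4.47% were called lower and 2.47% higher. The calls rest on single libraries. Without Keap1-deleted untreated 1, 2 or 5, or without Keap1-deleted BAP 4, no member and at most 0.0102% of all genes were called. On the log2 scale the values were -7.82 for Klk14, -5.62 for Klk13, -6.19 for Klk12, -6.06 for Klk10, -4.51 for Klk8, -5.34 for Klk6 and -8.64 for Klk2-ps among kallikreins. They were -5.21 for Serpinb3a, -5.34 for Serpinb3d, -5.24 for Serpinb11, -6.35 for Spink5 and -6.48 for Spink12.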

How the results depend on the processing

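No paired analysis was possible because replicate numbers only follow the order of deposition. In the BAP comparison of genotypes, 25 to 27 members fell and 4 to 5 rose when 1 library was left out. Of all genes, 34.4% to 39.4% were called in either direction in those fits. With the basal score as a covariate, 0 fell and 0 rose in that comparison, 0 fell in Keap1-deleted tumours with BAP, 0 were called in the interaction, and 1 rose with Keap1 deleted in untreated tumours. Over all genes 0%, 0.0104%, 0% and 0.687% were called, in the same order. Untreated tumours gave 2 risen members with DESeq2 (4.41% of all genes called), 4 without Keap1-wildtype untreated 6 and Keap1-deleted BAP 2 together (12.9%), and 0 to 4 with 1 library left out. For BAP in Keap1-deleted tumours, 15 fallen members became 3 with no low-count filter (1.12% of all genes called), 1 with only the groups compared (2.05%) and 23 with DESeq2 (10.6%). With 1 library left out there were 2 to 20 (0.913% to 8.06%). In the interaction, 12 became 0 with no low-count filter (0.312% of all genes called) and 22 with DESeq2 (14.5%). With the R suffix of the sample titles as a covariate the count was 25, 1 of them higher (15.7%). It was 0 to 21 with 1 library left out, and the fits with 0 called only 1 or 2 of all genes. The interaction could not be fitted with only the groups compared. Library totals without TMM moved the median of all genes by 0.44 (log2) in the BAP comparison of genotypes. Depth limits Serpinb3c, Spink6, Spink14 and Klk2-ps, which had 3 or fewer counts in a group. The cause of these changes was not tested.

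Of 939 alternative values of named members, 740 kept direction and call, 168 lost the call, 6 gained it and 25 changed sign, all 25 under the basal score covariate. In the BAP comparison of genotypes the log2 values then were 0.53 (Klk10), 1.06 (Klk13), 0.21 (Klk14), 2.59 (Klk2-ps), 3.10 (Klk7), 1.22 (Klk8), 0.66 (Serpinb12), 0.19 (Serpinb2), 1.35 (Serpinb5), 2.53 (Serpinb6c), 0.71 (Spink12), 0.32 (Spink14), 2.33 (Spink5) and 3.90 (Spink7). For BAP in Keap1-deleted tumours they were 0.0768 (Klk10), 0.76 (Klk13), 1.08 (Klk8), 0.037 (Serpinb12), 1.07 (Serpinb5) and 0.0302 (Spink5). In the interaction they were 0.79 (Klk13), 0.91 (Klk8) and 1.23 (Serpinb5). Serpinb5 was 0.12 for Keap1 in untreated and -0.16 for BAP in Keap1-wildtype tumours. In the BAP comparison of genotypes and for BAP in Keap1-deleted tumours, the groups share no part of the range of the score. The values given for them extrapolate beyond the scores seen and are not adjusted rises, and no member was called there or in the interaction with this covariate.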
